A study of Saccharomyces cerevisiae with 27 samples.

Results

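The 7 genes described here encode the enzymes that make and break down trehalose in the yeast *Saccharomyces cerevisiae*. They were taken by their systematic identifiers, with earlier results of these data known: *TPS1* (YBR126C), *TPS2* (YDR074W), *TPS3* (YMR261C) and *TSL1* (YML100W) for synthesis, and *NTH1* (YDR001C), *NTH2* (YBR001C) and *ATH1* (YPR026W) for breakdown. All 7 were among the 7122 gene IDs of the count table, and all 7 passed the filter on low counts, which left 6386 genes for testing.

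The study compared 3 strains of *ALA1*, the gene of alanyl-tRNA synthetase (AlaRS), the enzyme that loads alanine onto its tRNA. All are derivatives of BY4741. None of the libraries held a count for *URA3* or *MET17*, and every library held counts for *HIS3*, *LEU2* and *ALA1*. The wild type is called WT, C719A carries an AlaRS with a defect in editing, the step that removes wrongly attached amino acids, and G906D carries an AlaRS with a defect in aminoacylation. In all 3 strains the chromosomal *ALA1* was deleted and the WT or mutant allele came from a single-copy plasmid. The mutant alleles were brought in by plasmid shuffling, on *LEU2* plasmids. RNA came from log-phase cultures in YPD at 30 °C (0 h) and from cultures shifted to 37 °C for 1 h or 2 h. Strain and time gave 9 groups with 3 libraries of poly(A) RNA each, named by the letters A, B and C, and 27 libraries in all.

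Trehalose is a disaccharide of 2 glucose units that yeast cells accumulate under heat and other stress, where it stabilises proteins and membranes. Synthesis takes place in a complex in which Tps1 joins UDP-glucose and glucose 6-phosphate to trehalose 6-phosphate, and Tps2 removes the phosphate. Tps3 and Tsl1 are regulatory subunits of that complex. Nth1, the main neutral trehalase, and its paralog Nth2 split trehalose in the cytosol, and Ath1, the acid trehalase, splits it outside the cytosol. Several of these genes are known targets of Msn2 and Msn4, transcription factors of the general stress response that bind the stress response element, whose core is AGGGG or, on the other strand, CCCCT.

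In the R64 assembly each gene is a single coding exon, and no other annotated gene overlaps any of the 7 coding regions. *TPS1* lies on chromosome II at 488905-490392 on the minus strand, *TPS2* on chromosome IV at 593893-596583 on the plus strand, *TPS3* on chromosome XIII at 790205-793369 on the minus strand and *TSL1* on chromosome XIII at 70624-73920 on the plus strand. *NTH1* lies on chromosome IV at 450220-452475 on the minus strand, *NTH2* on chromosome II at 238941-241283 on the minus strand and *ATH1* on chromosome XVI at 615379-619014 on the plus strand. The coding regions are 1488 bases long for *TPS1*, 2691 for *TPS2*, 3165 for *TPS3*, 3297 for *TSL1*, 2256 for *NTH1*, 2343 for *NTH2* and 3636 for *ATH1*. No stretch of 50 bases was shared between the coding sequences of any 2 of the 7 genes, the paralogs *NTH1* and *NTH2* included.

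The sequences upstream of the synthesis genes with the most stress response element cores, *TPS1* and *TSL1*, are shown beside those of the paralogs *NTH1*, with fewer cores, and *NTH2*, with none. Each line gives the bases from 300 to 101 before the start codon, 5′ to 3′ on the strand of the gene, from the RefSeq genome of assembly R64. The windows are chrII:490493-490692 on the minus strand for *TPS1*, chrXIII:70324-70523 on the plus strand for *TSL1*, chrIV:452576-452775 on the minus strand for *NTH1* and chrII:241384-241583 on the minus strand for *NTH2*. Capitals mark AGGGG or CCCCT.
TPS1: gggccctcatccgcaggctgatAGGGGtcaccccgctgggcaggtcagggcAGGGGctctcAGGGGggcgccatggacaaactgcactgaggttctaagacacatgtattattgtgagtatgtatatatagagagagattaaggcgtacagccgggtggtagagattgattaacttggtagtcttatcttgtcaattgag
TSL1: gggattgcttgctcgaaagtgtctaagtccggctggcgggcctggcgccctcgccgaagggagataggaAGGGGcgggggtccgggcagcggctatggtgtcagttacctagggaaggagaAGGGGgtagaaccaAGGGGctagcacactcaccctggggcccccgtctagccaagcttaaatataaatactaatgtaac
NTH1: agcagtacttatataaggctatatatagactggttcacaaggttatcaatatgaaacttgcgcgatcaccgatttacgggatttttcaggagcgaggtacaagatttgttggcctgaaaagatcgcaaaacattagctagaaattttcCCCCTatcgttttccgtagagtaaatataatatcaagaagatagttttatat
NTH2: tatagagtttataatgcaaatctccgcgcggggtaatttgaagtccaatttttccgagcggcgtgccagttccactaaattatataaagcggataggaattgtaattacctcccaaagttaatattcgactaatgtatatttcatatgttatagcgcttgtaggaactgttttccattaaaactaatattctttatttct

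The search for motifs covered the 300 bases before the start codon on both strands. *TPS1* held 3 cores, at 278, 249 and 239 bases before the start codon, and *TSL1* held 3, at 231, 179 and 165. *TPS3* held 2, at 235 and 217, *NTH1* held 1, at 152, and *TPS2*, *NTH2* and *ATH1* held 0. Of 6007 windows of the same length before other and these coding regions, 22.2% held at least 1 core, 3.48% at least 2 and 0.549% at least 3. The heat shock element of 3 units, in which GAA and TTC alternate with 2 bases of any kind between units, starting with either, was in none of the 7 windows and in 0.866% of all windows. In a second window, from 400 to 101 bases before the start codon and chosen after the first had been seen, the cores numbered 5 for *TPS1*, 1 for *TPS2*, 2 for *TPS3*, 5 for *TSL1*, 3 for *NTH1*, 0 for *NTH2* and 1 for *ATH1*, and *TSL1* held 1 heat shock element, at 354. There, 23.6% of the 6007 windows held at least 1 core, 0.816% at least 3, 0.0499% at least 5, and 1.1% a heat shock element. These are matches of letters, and no binding was measured.

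Total counts lay between 14471528 and 23057641 per library (median 17523615). Libraries of a group differed by more than counting noise in each of 27 pairs (chi-square per degree of freedom from 7.05 to 121). The study calls the replicates biological without saying what set them apart, and p-values measure the spread between these libraries. The 528 tested genes of chromosome VII stood at a median log2 difference of 0.91, 0.96 and 0.94 against the WT in the G906D strain at 0, 1 and 2 h, whereas the medians of the other genes were -0.09, -0.04 and -0.07. None of the 7 genes is on chromosome VII. BY4741 is a strain of mating type a, but 4 genes that mark alpha cells summed to between 380 and 10862 CPM (counts scaled to a common library total), against 58.9 to 262 for 6 genes that mark a cells, none of which was at 0. At 0 h the sum of the alpha-cell genes was 2156 to 2588 CPM in the WT, 4630 to 6120 in the C719A strain and 10614 to 10862 in the G906D strain, and at 2 h it was 380 to 466, 815 to 1038 and 1385 to 1547. The libraries thus went against that mating type, and the part of mating type in the results below was not tested. At 0 h *ALA1* stood at 2703, 3147 and 2581 CPM in the WT and at 5807, 4820 and 5624 in the C719A strain. In the G906D strain *ALA1* stood at 2715, 2776 and 2549 CPM. *LEU2* stood at 770, 729 and 598 CPM in the WT, 3573, 2518 and 4248 in C719A and 1031, 949 and 945 in G906D. The part of these levels in the results below was not tested. In bulk RNA, fewer expressing cells and less RNA per cell cannot be told apart.

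Levels of different genes were compared as FPKM, fragments per kilobase scaled to the library total, as the authors deposited it. In the WT before heat, *TPS1* stood at 1797 ± 226 FPKM (SD, n = 3), *TPS2* at 1242 ± 149, *TSL1* at 632 ± 113 and *TPS3* at 131 ± 25.8. Of the trehalases, *NTH1* stood at 291 ± 53.1 FPKM, above *TPS3*. *NTH2* at 88.2 ± 23.3 and *ATH1* at 26.5 ± 12.3 FPKM had lower means than every synthesis gene. In the order *TPS1*, *TPS2*, *TSL1*, *NTH1*, *TPS3*, *NTH2* and *ATH1*, the ranges of neighbours did not overlap, except those of *TPS3* and *NTH2*. After 2 h at 37 °C the WT means were 2522 ± 305 FPKM for *TPS1*, 1444 ± 91.6 for *TPS2*, 974 ± 106 for *TSL1*, 563 ± 7.5 for *NTH1*, 374 ± 6.1 for *NTH2*, 176 ± 20.9 for *TPS3* and 166 ± 25.2 for *ATH1*. *NTH2* then stood above *TPS3*, and the ranges of *TPS3* and *ATH1* overlapped.

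Before heat, the 4 synthesis genes were lower in both mutants than in the WT, to between 0.632 (*TPS1*) and 0.433 (*TPS3*) of the WT level in the C719A strain and to between 0.545 (*TPS1*) and 0.338 (*TSL1*) in the G906D strain. The 3 trehalase genes fell with them in the G906D strain, whereas in the C719A strain none of the 3 passed the test. The values are CPM scaled by TMM, a factor per library that sets most genes level, and a gene was called at an adjusted p under 0.05 over all 6386 genes (edgeR's quasi-likelihood test, Benjamini-Hochberg adjustment).

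*TPS1*, the synthase, stood at 2589, 2839 and 3209 CPM in WT replicates A, B and C at 0 h, at 1627, 2126 and 1710 in the C719A strain and at 1528, 1460 and 1719 in the G906D strain. All 3 G906D libraries lay below the 3 WT libraries, where 63.0% of all genes did not overlap between the G906D strain and the WT. The log2 difference was -0.66 ± 0.16 (SE, adjusted p = 0.000983, edgeR) in the C719A strain and -0.88 ± 0.16 (adjusted p = 3.63e-05) in the G906D strain. *TPS2*, the phosphatase, stood at 3450, 3357 and 3977 CPM in the WT, at 1354, 1949 and 1448 in the C719A strain and at 1548, 1474 and 1753 in the G906D strain. The groups of the mutants overlapped each other, and that of G906D was apart from the WT, as for 63.0% of all genes. The log2 difference of *TPS2* was -1.18 ± 0.18 in each mutant (adjusted p = 7.52e-06 for C719A and 4.86e-06 for G906D, edgeR).

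*TPS3*, the regulatory subunit of lower abundance, stood at 417, 386 and 529 CPM in the WT, at 174, 218 and 185 in the C719A strain and at 216, 219 and 208 in the G906D strain. Its log2 difference was -1.21 ± 0.15 (adjusted p = 5.51e-07, edgeR) and -1.05 ± 0.15 (adjusted p = 1.88e-06), respectively. *TSL1*, the other regulatory subunit, stood at 1858, 2275 and 2601 CPM in the WT, at 880, 1387 and 976 in the C719A strain and at 745, 682 and 850 in the G906D strain. For *TSL1* the G906D libraries lay below every library of the C719A strain and of the WT. Among all genes 63.0% did not overlap between the G906D strain and the WT, and 55.5% between the mutants. Its log2 difference from the WT was -1.05 ± 0.21 (adjusted p = 0.000154, edgeR) in the C719A strain and -1.56 ± 0.21 (adjusted p = 8.46e-07) in the G906D strain.

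The trehalases, like *TSL1*, set the mutants apart from each other at 0 h. *NTH1* stood at 580, 723 and 821 CPM in the WT, at 507, 664 and 588 in the C719A strain and at 398, 392 and 434 in the G906D strain. *NTH2* stood at 167, 295 and 210 CPM in the WT, at 248, 367 and 254 in the C719A strain and at 112, 111 and 133 in the G906D strain. *ATH1*, the least abundant of the 7, stood at 59.9, 161 and 92.5 CPM in the WT, at 105, 156 and 117 in the C719A strain and at 37.2, 37.4 and 54.0 in the G906D strain. For all 3 genes the G906D libraries lay below every library of the other strains, where 63.0% of all genes did not overlap between the G906D strain and the WT and 55.5% between the mutants, and the C719A libraries overlapped those of the WT. WT replicate B was the highest of its group for *NTH2* and *ATH1*, and C719A replicate B was the highest of its group for all 7 genes.

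The log2 differences of the G906D strain from the WT were -0.80 ± 0.13 for *NTH1*, -0.92 ± 0.16 for *NTH2* and -1.29 ± 0.26 for *ATH1* (adjusted p = 1.12e-05, 3.16e-05 and 0.000136, edgeR). Those of the C719A strain were -0.27 ± 0.13, 0.37 ± 0.16 and 0.27 ± 0.25 (adjusted p = 0.0754, 0.052 and 0.372, edgeR), with 95% intervals from -0.54 to -0.01 for *NTH1*, from 0.04 to 0.70 for *NTH2* and from -0.24 to 0.78 for *ATH1*, before adjustment. Without WT replicate A at 0 h, the *ATH1* value was -0.01. Set against each other, the C719A strain was higher than the G906D strain by 0.52 ± 0.13 for *NTH1*, 1.29 ± 0.16 for *NTH2* and 1.56 ± 0.26 for *ATH1* on the log2 scale (adjusted p = 0.00178, 5.14e-07 and 2.66e-05, edgeR). *TSL1* was also higher, by 0.51 ± 0.20 (adjusted p = 0.0475), a call that was lost without C719A replicate B (adjusted p = 0.316) or C (0.0504) and without G906D replicate A (0.109) or B (0.155). Without all replicate B libraries, an alternative chosen after seeing the data, the calls for *TSL1* and *NTH1* were lost (adjusted p = 0.541 and 0.0876) and 2 were left, and with TMM computed without chromosome VII that for *TSL1* was lost (0.0688). The other synthesis genes did not pass, with values such as 0.21 for *TPS1* and -0.16 for *TPS3*.

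In counts, 4 of the 7 genes were lower in the C719A strain at 0 h, where 26.7% of all genes were lower by the same rule and 53.7% were called in either direction. In the G906D strain 7 of 7 were lower, against 33.2% of all genes lower and 64.1% called. The median log2 difference over the 7 was -0.66 for C719A and -1.05 for G906D, beside 0.01 and -0.03 over all genes. Between the mutants, 4 of 7 were higher in the C719A strain, against 21.6% of all genes higher and 41.8% called. All 11 calls against the WT at 0 h held under every alternative that was run.

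**Figure D1:**
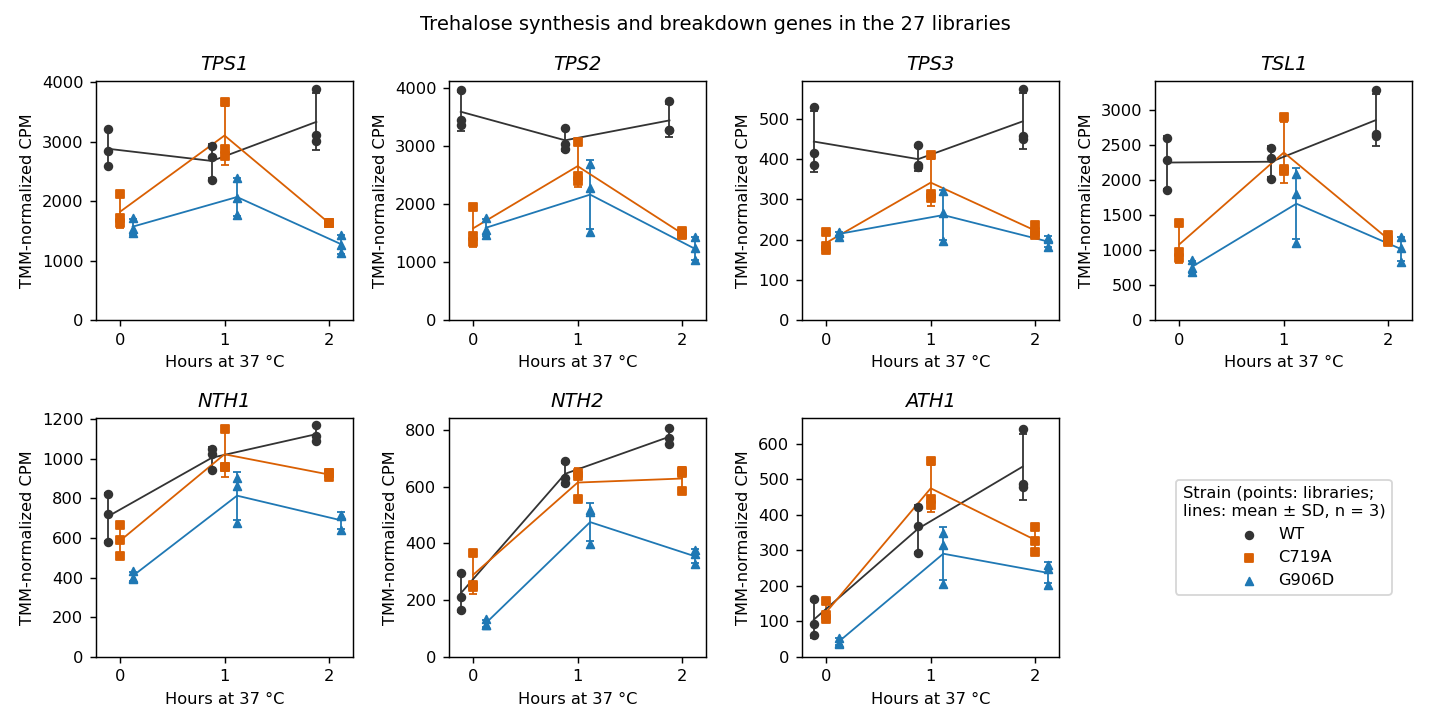
Expression of the 7 genes in each of the 27 libraries, as TMM-normalized CPM (y axis, from 0) against hours at 37 °C (x axis). Points are libraries, coloured by strain and shifted sideways for clarity, and lines join the means with bars of 1 SD (n = 3). The synthesis genes of the mutants start below the WT. Those of the C719A strain rise at 1 h and fall at 2 h, as do those of the G906D strain except *TPS3*, which passed neither test, and the trehalase genes rise at 1 h in every strain.

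After 1 h at 37 °C none of the 7 genes passed the test between the C719A strain and the WT. *TPS1* stood at 2358, 2741 and 2920 CPM in the WT, at 2758, 3663 and 2881 in the C719A strain and at 1758, 2390 and 2055 in the G906D strain. *TSL1* stood at 2016, 2306 and 2447 CPM in the WT, at 2117, 2890 and 2156 in the C719A strain and at 1099, 2076 and 1799 in the G906D strain. The WT and C719A libraries overlapped for both genes, and G906D replicate A was the lowest of the 9. *TPS2* stood at 3046, 2947 and 3311 CPM in the WT, at 2402, 3075 and 2489 in the C719A strain and at 1520, 2699 and 2274 in the G906D strain, with the WT and C719A libraries again overlapping. For the C719A strain the log2 differences ran from -0.23 ± 0.15 for *TPS3* to 0.39 ± 0.24 for *ATH1*, with 0 of 7 called by edgeR, 0 at an unadjusted p under 0.05, 0 by DESeq2 and 0 by limma-trend on log2 FPKM with either pseudocount. Among all genes 35.8% were called in this comparison. *ATH1* had the widest 95% interval, from -0.11 to 0.90, and it was the only 1 of the 7 whose C719A libraries, at 444, 550 and 427 CPM, did not overlap those of the WT, at 292, 368 and 422. That held for 48.4% of all genes.

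The G906D strain was lower than the WT at 1 h for *TPS2* (-0.52 ± 0.18), *TPS3* (-0.62 ± 0.15) and *NTH2* (-0.44 ± 0.16 on the log2 scale), with adjusted p = 0.0263, 0.00213 and 0.0354 (edgeR). These 3 of 7 compare with 15.0% of all genes lower and 31.2% called. *TPS1* (-0.37), *TSL1* (-0.44), *NTH1* (-0.31) and *ATH1* (-0.31) did not pass. G906D replicate A was the lowest library of its group for all 7 genes. Without it 1 gene, *TPS3*, was called (adjusted p = 0.167 for *TPS2* and 0.169 for *NTH2*), as without WT replicate C (0.0837 and 0.115), and without G906D replicate B 6 were called. The call for *NTH2* was also lost without WT replicate A (0.0609) and with TMM computed without chromosome VII (0.0643), and *TPS3* alone was called when only the groups compared were fitted. The C719A strain was higher than the G906D strain at 1 h for *TPS1* (0.58 ± 0.16), *TPS3* (0.39 ± 0.15), *TSL1* (0.53 ± 0.20), *NTH1* (0.33 ± 0.13) and *ATH1* (0.71 ± 0.25), 5 of 7 where 17.9% of all genes were higher and 37.3% called (adjusted p = 0.00424 to 0.0448, edgeR). *TPS2* (0.30) and *NTH2* (0.37) did not pass. Without C719A replicate B or without G906D replicate A only *TPS1* was called, and without G906D replicate C 2 genes, *TPS1* and *ATH1*, were called. The same 2 were called with TMM computed without chromosome VII, with only the groups compared in the fit and without all replicate B libraries. None of the 5 calls held under every alternative that was run. With the replicate letter as a block within each strain 0 were called, but between strains that fit does not compare group means.

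After 2 h both mutants were again below the WT, the C719A strain by 2.04-fold (*TPS1*) to 2.47-fold (*TSL1*) and the G906D strain by 2.53-fold (*TPS3*) to 2.81-fold (*TSL1*) for the synthesis genes. *TPS1* stood at 3878, 3001 and 3112 CPM in WT replicates A, B and C, at 1633, 1626 and 1639 in the C719A strain and at 1437, 1260 and 1120 in the G906D strain. *TPS2* stood at 3781, 3277 and 3277 CPM in the WT, at 1478, 1539 and 1468 in the C719A strain and at 1426, 1240 and 1034 in the G906D strain. For both genes the 3 strains did not overlap, where 69.7% of all genes did not overlap between the C719A strain and the WT. The share was 72.9% between the G906D strain and the WT and 61.1% between the mutants. The C719A libraries lay close together, with an SD of 6.35 CPM for *TPS1*.

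The log2 difference of the C719A strain at 2 h was -1.03 ± 0.16 for *TPS1*, -1.20 ± 0.18 for *TPS2*, -1.15 ± 0.15 for *TPS3* and -1.30 ± 0.21 for *TSL1* (adjusted p = 5.53e-06, 3.76e-06, 5.53e-07 and 9.64e-06, edgeR). That of the G906D strain was -1.39 ± 0.16, -1.48 ± 0.18, -1.34 ± 0.15 and -1.49 ± 0.21 (adjusted p = 5.61e-08, 1.48e-07, 4.11e-08 and 1.1e-06, edgeR). *TPS3* stood at 574, 451 and 457 CPM in the WT, at 220, 237 and 211 in the C719A strain and at 201, 205 and 181 in the G906D strain. *TSL1* stood at 3276, 2649 and 2621 CPM in the WT, at 1142, 1212 and 1109 in the C719A strain and at 1179, 1032 and 830 in the G906D strain. The WT libraries of both genes were the highest of the 9, and replicate A was the highest in the WT for all 7 genes.

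Among the trehalases at 2 h, *NTH2* stood at 809, 750 and 772 CPM in the WT, at 656, 648 and 584 in the C719A strain and at 376, 362 and 328 in the G906D strain. *ATH1* stood at 642, 486 and 476 CPM in the WT, at 326, 365 and 296 in the C719A strain and at 260, 246 and 203 in the G906D strain. *NTH1* stood at 1168, 1091 and 1115 CPM in the WT, at 926, 909 and 927 in the C719A strain and at 717, 709 and 642 in the G906D strain. The 3 strains did not overlap for any of the 3 genes, where 61.1% of all genes did not overlap between the mutants. In the G906D strain *NTH1*, *NTH2* and *ATH1* were lower than in the WT, with log2 differences of -0.71 ± 0.13, -1.13 ± 0.16 and -1.18 ± 0.25 (adjusted p = 3.67e-05, 1.45e-06 and 0.000205, edgeR). In the C719A strain *ATH1* was lower, at -0.70 ± 0.25 (adjusted p = 0.0179), a call lost without WT replicate A (adjusted p = 0.0929) or without C719A replicate C (0.068). *NTH1* (-0.29 ± 0.13) and *NTH2* (-0.30 ± 0.16) did not pass (adjusted p = 0.057 and 0.105, edgeR).

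At 2 h, 5 of 7 genes were thus lower in the C719A strain, against 28.9% of all genes lower and 56.5% called, and 7 of 7 in the G906D strain, against 33.2% lower and 65.1% called. The libraries of mutant and WT did not overlap for any of the 7 in either mutant, which held for 69.7% of all genes with C719A and for 72.9% with G906D. *NTH1* and *NTH2* were higher in the C719A than in the G906D strain, by 0.42 ± 0.13 and 0.82 ± 0.16 on the log2 scale (adjusted p = 0.0111 and 0.000179, edgeR), 2 of 7 where 18.6% of all genes were higher and 39.5% called. The call for *NTH1* was lost without G906D replicate C (adjusted p = 0.0569) and without all replicate B libraries (0.054). The other genes, such as *TPS1* (0.36), *TSL1* (0.19) and *ATH1* (0.48), did not pass.

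**Figure D2:**
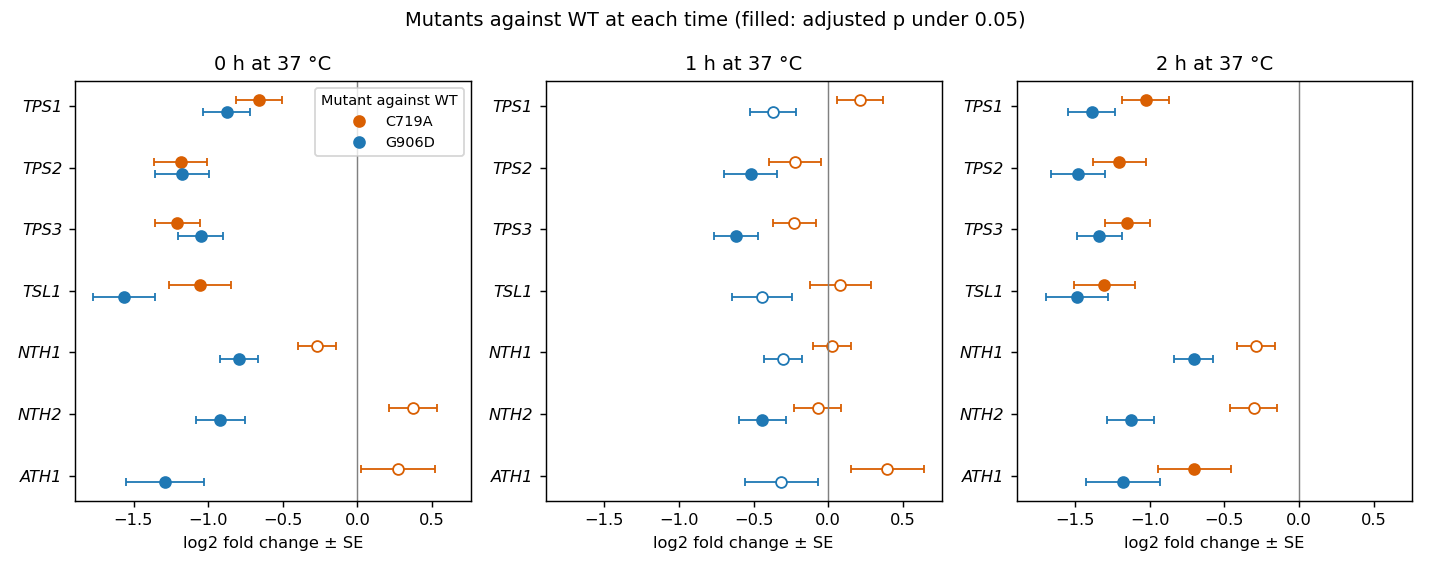
Log2 fold change of each mutant against the WT (x axis) for the 7 genes at 0, 1 and 2 h, with bars of 1 SE from the edgeR fit over 27 libraries. Filled points passed an adjusted p of 0.05. The synthesis genes of both mutants lie left of 0 at 0 h and 2 h, and no point of the C719A strain is filled at 1 h.

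In the WT at 37 °C the trehalase genes rose, whereas no synthesis gene passed the test. In WT replicates A, B and C at 1 h, *NTH1* stood at 1025, 945 and 1047 CPM, *NTH2* at 633, 615 and 690 and *ATH1* at 292, 368 and 422. All of these lay above every WT library at 0 h, where 58.8% of all genes did not overlap between these times. *ATH1* rose 3.45-fold (1.79 ± 0.25 on the log2 scale), *NTH2* 2.89-fold (1.53 ± 0.16) and *NTH1* 1.42-fold (0.51 ± 0.13), with adjusted p = 1.69e-06, 3.11e-08 and 0.0014 (edgeR). The 4 synthesis genes had values between -0.21 ± 0.18 (*TPS2*) and 0.01 ± 0.20 (*TSL1*), and none passed, and with library size alone that of *TPS2* was 0.07. These 3 of 7 compare with 30.8% of all genes higher and 61.0% called.

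From 1 h to 2 h the WT values of the 7 genes ran from 0.15 ± 0.18 (*TPS2*) to 0.57 ± 0.24 (*ATH1*). None was called by edgeR, DESeq2 or limma-trend, and 2 (*TPS3* and *ATH1*) had an unadjusted p under 0.05, beside 24.0% of all genes called. Over the full 2 h, *NTH1*, *NTH2* and *ATH1* were higher by 0.67 ± 0.13, 1.80 ± 0.16 and 2.36 ± 0.26 on the log2 scale (adjusted p = 5.93e-05, 8.77e-10 and 1.81e-08, edgeR), 3 of 7 where 35.7% of all genes were higher. The synthesis genes ran from -0.06 (*TPS2*) to 0.34 (*TSL1*). With libraries scaled by their totals alone, 6 of the 7 were called in this comparison.

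In the C719A strain all 7 genes rose at 1 h, against 33.9% of all genes higher and 66.0% called. Among the synthesis genes *TSL1* rose most, 2.21-fold (1.14 ± 0.21 on the log2 scale, adjusted p = 3.42e-05, edgeR), and *TPS1*, *TPS2* and *TPS3* rose by 0.77 ± 0.16, 0.75 ± 0.18 and 0.83 ± 0.15 (adjusted p = 0.000136, 0.000694 and 2.93e-05). *TPS3* stood at 303, 410 and 313 CPM in replicates A, B and C at 1 h. Replicate B was again the highest for all 7 genes. In the same libraries *NTH1* stood at 959, 1152 and 957 CPM, *NTH2* at 637, 650 and 558 and *ATH1* at 444, 550 and 427. *NTH1* rose by 0.80 ± 0.13, *NTH2* by 1.09 ± 0.16 and *ATH1* by 1.91 ± 0.25 (adjusted p = 7.57e-06, 2.62e-06 and 6.13e-07, edgeR). These 7 calls held under every alternative that was run.

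From 1 h to 2 h the 4 synthesis genes of the C719A strain fell again. *TPS1* fell by 0.93 ± 0.16, *TPS2* by 0.83 ± 0.18, *TPS3* by 0.62 ± 0.15 and *TSL1* by 1.05 ± 0.21 on the log2 scale (adjusted p = 0.000333, 0.00246, 0.00574 and 0.00116, edgeR). *NTH1* (-0.15 ± 0.13), *NTH2* (0.03 ± 0.16) and *ATH1* (-0.53 ± 0.25) did not pass. The 4 of 7 compare with 7.5% of all genes lower and 15.2% called. Without C719A replicate B at 1 h the call for *TPS3* was lost (adjusted p = 0.0653). Without all replicate B libraries 1 of the 4 calls was left, that for *TPS1*. After 2 h the synthesis genes stood between -0.16 (*TPS1*) and 0.21 (*TPS3*) from their 0 h level, and none passed, whereas *NTH1*, *NTH2* and *ATH1* were higher by 0.65 ± 0.13, 1.12 ± 0.16 and 1.38 ± 0.25 (adjusted p = 9.97e-05, 1.68e-06 and 3.7e-05, edgeR), 3 of 7 where 34.8% of all genes were higher.

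In the G906D strain the trehalases, which had started below those of the other strains, rose as well. At 1 h *ATH1* stood at 206, 348 and 316 CPM in replicates A, B and C, *NTH2* at 398, 519 and 510 and *NTH1* at 676, 904 and 861. Replicate A was the lowest for each, and all lay above the 0 h libraries, where 73.2% of all genes did not overlap. *ATH1* rose 6.78-fold (2.76 ± 0.27 on the log2 scale), *NTH2* 4.01-fold (2.00 ± 0.17) and *NTH1* 1.99-fold (1.00 ± 0.13), with adjusted p = 1.99e-09, 1.61e-10 and 2.18e-07 (edgeR).

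*TSL1* rose by 1.13 ± 0.21 (adjusted p = 2.98e-05, edgeR) with the G906D allele at 1 h, *TPS1* by 0.40 ± 0.16 and *TPS2* by 0.44 ± 0.18 (adjusted p = 0.0248 and 0.0274). *TPS3* (0.29 ± 0.15) did not pass. The 6 of 7 compare with 37.6% of all genes higher and 71.4% called. The calls for *TPS1* and *TPS2* were lost without G906D replicate B at 1 h (adjusted p = 0.144 and 0.227) and without replicate A or B at 0 h (0.0667 and 0.0884 for *TPS1*, 0.0707 and 0.0927 for *TPS2*), and that for *TPS2* also without replicate C at 1 h (0.074) and with only the groups compared (0.076). Both were lost without all replicate B libraries (0.299 and 0.41).

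From 1 h to 2 h *TPS1* fell by 0.70 ± 0.16, *TPS2* by 0.81 ± 0.18 and *TSL1* by 0.71 ± 0.20 in the G906D strain (adjusted p = 0.00404, 0.00363 and 0.0215, edgeR), 3 of 7 where 8.3% of all genes were lower and 16.1% called. *TPS3* (-0.42), *NTH1* (-0.24), *NTH2* (-0.42) and *ATH1* (-0.30) did not pass. Without G906D replicate A at 1 h 6 of 7 were called. The call for *TSL1* was lost without replicate B or C at 1 h (adjusted p = 0.163 and 0.0913) or without replicate B or C at 2 h (0.0586 and 0.125), which left 2, and without all replicate B libraries 0 of the 3 were called. Over 2 h, *NTH1*, *NTH2* and *ATH1* were higher by 0.76 ± 0.13, 1.58 ± 0.16 and 2.47 ± 0.26 (adjusted p = 1.45e-05, 8.84e-09 and 1.61e-08, edgeR), 3 of 7 where 35.0% of all genes were higher. The synthesis genes ran from -0.37 (*TPS2*) to 0.42 (*TSL1*) and did not pass.

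**Figure D3:**
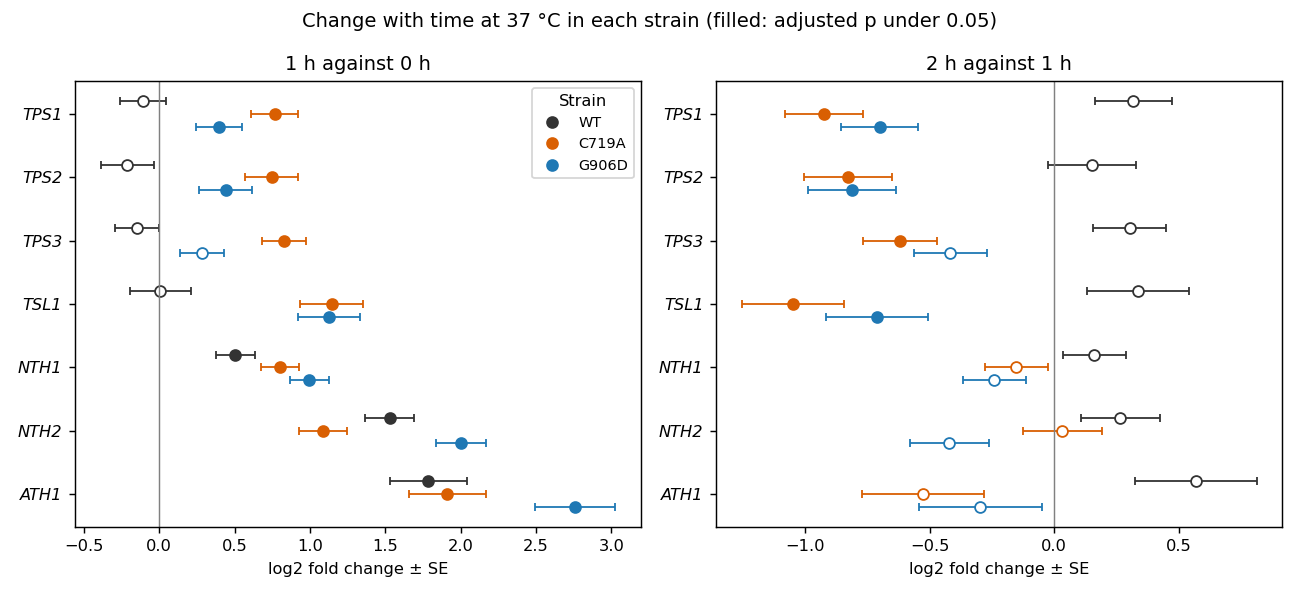
Log2 fold change with time at 37 °C (x axis) for the 7 genes in each strain, from 0 h to 1 h (left) and from 1 h to 2 h (right), with bars of 1 SE from the edgeR fit. Filled points passed an adjusted p of 0.05. In the first hour all 7 points of the C719A strain are filled and right of 0, and in the second hour its 4 synthesis genes are filled and left of 0.

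Whether the strains differed in these responses was tested directly, as the change in a mutant minus the change in the WT. In the first hour the change of the 4 synthesis genes was more positive in the C719A strain than in the WT, by 0.88 ± 0.22 for *TPS1*, 0.96 ± 0.25 for *TPS2*, 0.98 ± 0.21 for *TPS3* and 1.14 ± 0.29 for *TSL1* on the log2 scale (adjusted p = 0.00443, 0.00566, 0.00119 and 0.00488, edgeR). These 4 of 7 compare with 15.3% of all genes more positive and 31.5% called, and they held under every alternative that was run. The trehalases gave 0.30 (*NTH1*), -0.44 (*NTH2*) and 0.12 (*ATH1*) and did not pass. In the second hour the order turned, with -1.24 ± 0.22 for *TPS1*, -0.98 ± 0.25 for *TPS2*, -0.92 ± 0.21 for *TPS3*, -1.39 ± 0.29 for *TSL1* and -1.10 ± 0.35 for *ATH1* (adjusted p = 0.000341, 0.00495, 0.00214, 0.0013 and 0.0184, edgeR), 5 of 7 where 15.5% of all genes were more negative and 32.3% called. *NTH1* (-0.31) and *NTH2* (-0.23) did not pass. The call for *ATH1* was lost without WT replicate A at 1 h (adjusted p = 0.0608), C719A replicate B at 1 h (0.0568) or WT replicate A at 2 h (0.0653), and that for *TPS2* without all replicate B libraries (0.0527).

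Over the full 2 h the synthesis genes gave no call between the C719A strain and the WT, but *NTH2* and *ATH1* rose less in the C719A strain, with differences of -0.68 ± 0.22 and -0.97 ± 0.35 (adjusted p = 0.0207 and 0.032, edgeR), 2 of 7 where 18.2% of all genes were more negative and 36.7% called. Both calls were lost without WT replicate A or C719A replicate B at 0 h or without C719A replicate C at 2 h, or with only the groups compared in the fit, which left 0. Only 1 was left without WT replicate C at 0 h, WT replicate A at 2 h or C719A replicate A at 2 h.

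In the G906D strain the first-hour change was more positive than in the WT for *TPS2* (0.66 ± 0.25), *TSL1* (1.12 ± 0.29), *NTH1* (0.49 ± 0.18) and *ATH1* (0.97 ± 0.35), with adjusted p = 0.049, 0.00687, 0.0436 and 0.0409 (edgeR). *TPS1* (0.51), *TPS3* (0.43) and *NTH2* (0.48) did not pass. These 4 of 7 compare with 15.6% of all genes more positive and 29.4% called, and leaving out single libraries gave between 1 and 6 calls. The count was 1 without WT replicate C or G906D replicate A or B at 0 h, without WT replicate A or B at 1 h, or without G906D replicate B or C at 1 h. It was 2 without WT replicate B at 0 h and 6 without G906D replicate A at 1 h. *TSL1* was called in each of these fits, and alone when only the groups compared were fitted, but without all replicate B libraries 0 were called (adjusted p = 0.115 for *TSL1*).

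In the second hour the G906D change was more negative than that of the WT for *TPS1* (-1.02 ± 0.22), *TPS2* (-0.96 ± 0.25), *TPS3* (-0.72 ± 0.21), *TSL1* (-1.05 ± 0.29) and *NTH2* (-0.69 ± 0.22), with adjusted p = 0.0018, 0.00599, 0.0114, 0.00886 and 0.0237 (edgeR). *NTH1* (-0.40) and *ATH1* (-0.86) did not pass. The 5 of 7 compare with 13.4% of all genes more negative and 29.4% called, and the count was 3 without G906D replicate B at 1 h, when *TPS3* (adjusted p = 0.0567) and *NTH2* (0.069) were lost. The call for *NTH2* was also lost without WT replicate B at 1 h (0.0576), G906D replicate C at 1 h (0.0605), WT replicate A at 2 h (0.0531) or G906D replicate C at 2 h (0.0646). Without all replicate B libraries only *TPS1* was called. Over 2 h none was called by edgeR or limma-trend and 1 by DESeq2, and 1 (*TPS1*) had an unadjusted p under 0.05, beside 23.3% of all genes called.

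Ratios of FPKM within a library do not depend on how libraries are scaled. The summed FPKM of the 4 synthesis genes over that of the 3 trehalase genes was 10.8, 8.08 and 9.59 in WT replicates A, B and C at 0 h, 5.34, 5.35 and 5.09 in the C719A strain and 8.09, 7.80 and 8.07 in the G906D strain. At 1 h it was 4.29, 4.80 and 4.65 in the WT, 4.25, 4.91 and 4.63 in the C719A strain and 4.07, 4.65 and 4.16 in the G906D strain. At 2 h it was 4.99, 4.46 and 4.45 in the WT, 2.64, 2.70 and 2.76 in the C719A strain and 3.49, 3.14 and 3.01 in the G906D strain. The C719A libraries were the lowest at 0 h and at 2 h, where they overlapped no other strain, and at 1 h the 3 strains overlapped.

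On the log2 scale the ratio of synthesis to breakdown in the C719A strain differed from the WT by -0.84 at 0 h, 0.0043 at 1 h and -0.77 at 2 h (two-sided exact permutation p = 0.1, 1 and 0.1, 0.15, 1 and 0.15 adjusted over 36 ratio comparisons). With 3 libraries against 3 the smallest p this test can give is 0.1. The G906D strain differed from the WT by -0.24, -0.09 and -0.53 (exact p = 0.2, 0.2 and 0.1, adjusted 0.277, 0.277 and 0.15). From 0 h to 1 h the ratio fell by 1.04 in the WT, 0.20 with C719A and 0.90 with G906D, with no overlap between the times in any strain (exact p = 0.1, adjusted 0.15).

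*TSL1* over *TPS3*, the ratio of the regulatory subunits, was 4.28, 5.66 and 4.72 in the WT at 0 h, 4.85, 6.11 and 5.07 in the C719A strain and 3.31, 2.99 and 3.93 in the G906D strain, whose libraries were the lowest. It rose to 6.72, 6.77 and 6.61 in the C719A strain at 1 h and to 5.36, 6.23 and 6.48 in the G906D strain, above all of their 0 h libraries (log2 rises of 0.33 and 0.83, exact p = 0.1, adjusted 0.15). *NTH2* over *NTH1* was 0.277, 0.393 and 0.246 in the WT at 0 h, 0.471, 0.532 and 0.416 in the C719A strain and 0.271, 0.273 and 0.294 in the G906D strain. The C719A libraries lay above all others at 0 h. After 2 h it was 0.667, 0.662 and 0.667 in the WT, 0.682, 0.686 and 0.607 in the C719A strain and 0.505, 0.492 and 0.492 in the G906D strain, whose libraries lay below the others.

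**Figure D4:**
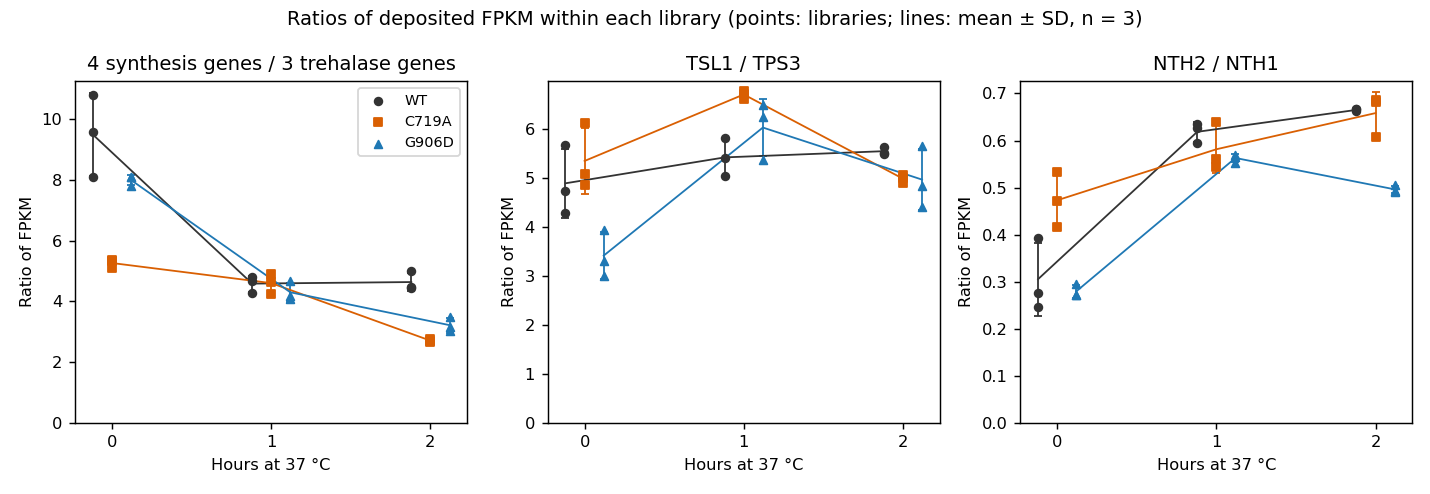
Ratios of FPKM within each library (y axes, from 0) against hours at 37 °C, for the summed synthesis genes over the summed trehalase genes, *TSL1* over *TPS3*, and *NTH2* over *NTH1*. Points are libraries, and lines join means with bars of 1 SD (n = 3). The ratio of synthesis to breakdown falls from 9.48 to 4.63 in the WT, from 5.26 to 2.70 in the C719A strain and from 7.99 to 3.21 in the G906D strain between 0 h and 2 h.

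Pearson's r of log2 CPM across the 27 libraries was 0.91 to 0.96 among the 4 synthesis genes and 0.93 to 0.98 among the 3 trehalase genes, whereas it was 0.33 between *TPS2* and either *NTH2* or *ATH1*. *TSL1* was the synthesis gene nearest to the trehalases, with r of 0.81 to *NTH1*. These values describe 27 libraries that share 9 group means, and all genes of a library share its depth and scaling. Of deviations from the group means, r was 0.83 to 0.96 among the synthesis genes and 0.92 between *NTH2* and *ATH1*, but *NTH1* was nearer to *TSL1* (0.89), *TPS2* (0.83), *TPS1* (0.80) and *TPS3* (0.78) than to *NTH2* or *ATH1* (0.71 each). Among 4681 named genes whose mean log2 CPM was 5 or more, the 3 most like *TPS1* were *UGP1*, YPL247C and *TPS2* (r = 0.96, 0.96 and 0.95). *UGP1* encodes the enzyme that makes UDP-glucose, a substrate of Tps1. *TPS2* was most like *TPS3*, *TPS1* and *OSH2* (0.96, 0.95 and 0.94), *TPS3* most like *DUF1*, *OSH2* and *MHP1* (0.97 each), and *TSL1* most like *SDS24*, *SYP1* and *PIG2* (0.97, 0.95 and 0.95). *NTH1* was most like *PFK26*, *GDB1*, the glycogen debranching enzyme, and *SYM1* (0.98 each). *NTH2* was most like *UBP11*, *DBP1* and *PEX5* (0.99 each), and *ATH1* most like *ATG39*, *HXT5*, a hexose transporter, and *HBT1* (0.99 each).

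Of 6 genes that supply the substrates of Tps1 (*HXK1*, *HXK2*, *GLK1*, *PGM1*, *PGM2* and *UGP1*), 6 were lower in the C719A strain at 0 h, where 26.7% of all genes were, most of all *PGM2*, a phosphoglucomutase (-1.17 on the log2 scale). With G906D, 5 were lower at 0 h, where 33.2% of all genes were, most of all *HXK1*, a hexokinase (-1.66), and 1 was higher, *HXK2* (0.98), which lies on chromosome VII, against 30.9% of all genes higher. At 1 h, 1 was lower and 1 higher in each mutant, where 18.4% of all genes were lower and 17.3% higher in the C719A strain and 15% lower and 16.3% higher in the G906D strain. At 2 h, 4 were lower in the C719A strain, led by *HXK1* (-1.54), where 28.9% of all genes were, and in the G906D strain 5 were lower, led by *HXK1* (-1.72), where 33.2% were, with *HXK2* higher (1.02).

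Other targets of the general stress response rose at 1 h also in the WT, where the synthesis genes gave no call. The list held *HSP12*, *HSP26*, *CTT1*, *DDR2*, *ALD3*, *TFS1*, *MSC1*, *SOL4*, *GRE3*, *PNC1*, *XBP1* and *RTN2*. All 12 of 12 were higher at 1 h than at 0 h in each strain. The share of all genes higher at 1 h was 30.8% for the WT, 33.9% for C719A and 37.6% for G906D. Among the 12, *HSP12*, a membrane-associated stress protein, rose most in the WT (2.22 on the log2 scale) and the G906D strain (4.39). With C719A the largest rise was that of *ALD3*, an aldehyde dehydrogenase (2.81). From 1 h to 2 h, 8 fell in the C719A strain, led by *CTT1*, the cytosolic catalase (-1.77), where 7.5% of all genes were lower. In the G906D strain 3 fell, led by *SOL4* (-0.84), where 8.3% of all genes were lower. In the WT 3 rose, led by *CTT1* (0.88), against 10.4% of all genes. Against the WT at 0 h, 2 were lower and 2 higher in the C719A strain, where 26.7% of all genes were lower and 27% higher. In the G906D strain 9 were lower and 1 higher, where 33.2% of all genes were lower and 30.9% higher. At 1 h, 1 was higher and 0 lower in the C719A strain, where 17.3% of all genes were higher and 18.4% lower. In the G906D strain 3 were then higher, led by *HSP26* (1.98), and 1 was lower, *RTN2* (-0.86). Among all genes 16.3% were higher and 15% lower in that comparison. At 2 h, 8 were lower in the C719A strain, led by *ALD3* (-2.16), where 28.9% of all genes were lower. In the G906D strain 9 were lower, led by *RTN2* (-2.20), against 33.2% of all genes, with 1 higher, *HSP26* (1.76), against 31.9%.

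A list of 16 regulators of the trehalose genes or their products held kinases, the Ras and protein kinase A pathway and transcription factors. It also held genes outside these classes, among them *BMH1*, *BMH2*, *DCS1* and *DCS2*. Of the 16, 11 were lower in the C719A strain at 0 h, against 26.7% of all genes, led by *CYR1*, the adenylate cyclase (-1.20 on the log2 scale). In the G906D strain 12 were lower at 0 h, against 33.2% of all genes, led by *YAK1*, a stress kinase (-1.02), and 1 was higher, *HSF1* (0.37), the heat shock transcription factor, whose gene lies on chromosome VII. Among all genes 30.9% were higher in that comparison. At 1 h, 5 were lower and 1 higher in the C719A strain, where 18.4% of all genes were lower and 17.3% higher. In the G906D strain 6 were lower and 1 higher, where 15% of all genes were lower and 16.3% higher. At 2 h, 9 were lower and 1 higher in the C719A strain, against 28.9% of all genes lower and 27.5% higher, and 12 lower and 2 higher in the G906D strain, against 33.2% lower and 31.9% higher, with the largest fall in *DCS2* (-1.08 and -1.43). *MAL11* on chromosome VII, which encodes a permease that carries trehalose, was lower in the C719A strain at 0, 1 and 2 h (-0.39, -0.32 and -0.67) and higher in the G906D strain at 0 h and 1 h (0.57 and 0.62).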

How the data were processed

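RNA of the 27 libraries was sequenced by the authors, whose processing notes name TopHat2 and Bowtie2. The counting tool, its strand setting and the annotation are not given in the sources used here. The authors deposited raw counts per gene and FPKM. The deposited FPKM equalled the count divided by 1 length per gene and by the library total, to within 0.034% over 5368 genes with at least 100 counts in every library, with lengths that were those of R64 for the 7 genes. Of 7122 IDs, 6045 matched an R64 locus tag.

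The tests on counts used edgeR 4.0.16 (R 4.3.3). The function filterByExpr over the 9 groups left 6386 genes, TMM factors ran from 0.719 to 1.15, and glmQLFit was fitted with 1 mean per group (common dispersion 0.0125). Each of 24 comparisons went through glmQLFTest, and p-values were adjusted by Benjamini-Hochberg over all genes tested, with 0.05 as the threshold. Deviations from the group means had r over 0.1 for every replicate letter between the WT at 0 h and 1 h (0.156, 0.154 and 0.209). No other pair of groups that share a strain or a time reached this for every letter. Whether letters paired libraries there was not settled, and the main tests used no pairing. Ratios were compared by two-sided exact permutation tests. All 7 genes are named. Of the other lists, counts are given with the called gene of largest rise or fall, and likeness used log2 CPM with a prior count of 2. The 7 genes and the lists were chosen with earlier results of these data known. On simulated counts, edgeR recovered 67 of 100 changes of 0.5 on the log2 scale between 2 groups and 97 of 100 changes of 1. Of 172 calls there, 8 were false. For a difference of responses it recovered 23 of 100 and 84 of 100, with 2 of 109 calls false.

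Alternatives were RLE size factors, library size alone, TMM without chromosome VII, at least 10 counts in every library (5906 genes), at least 1 count in any (6774), DESeq2 1.42.0, limma-trend (limma 3.58.1) on log2 FPKM plus 1 or 0.1, the replicate letter as a block, only the groups compared, CPM in place of FPKM for ratios, and each library left out. Leaving out all replicate B libraries was chosen after seeing the data. Plots were made with Python 3.11.15 and matplotlib 3.10.9.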

Additional observations from a re-analysis of the deposited data

Results flagged for a closer look

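The change with time differed between a mutant and the WT, by edgeR's test of the difference itself, in 20 of 42 tests. Among all genes 23.3% to 36.7% were called in these 6 comparisons. For the C719A strain in the first hour these were *TPS1* (0.88 on the log2 scale), *TPS2* (0.96), *TPS3* (0.98) and *TSL1* (1.14). In the second hour they were *TPS1* (-1.24), *TPS2* (-0.98), *TPS3* (-0.92), *TSL1* (-1.39) and *ATH1* (-1.10), and over 2 h *NTH2* (-0.68) and *ATH1* (-0.97). For the G906D strain they were *TPS2* (0.66), *TSL1* (1.12), *NTH1* (0.49) and *ATH1* (0.97) in the first hour, and *TPS1* (-1.02), *TPS2* (-0.96), *TPS3* (-0.72), *TSL1* (-1.05) and *NTH2* (-0.69) in the second. Both mutants were compared with the same 9 WT libraries. The changes over the first hour, the second hour and 2 h also share libraries, so the 42 tests are not independent.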

How the results depend on the processing

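Of the 89 calls, 58 held under every alternative, 31 were lost under at least 1 and 0 reversed. Leaving out 1 library lost 21, leaving out all replicate B libraries (chosen after seeing the data) 23, the block within each strain 13, fitting only the groups compared 12, TMM without chromosome VII 5, the block over all strains 2 and no filter on low counts 1. The 13 lost under the block within each strain include calls between strains, for which that fit does not compare group means. With library size alone the median log2 value of all genes ran from -0.37 (G906D against WT, 0 h) to 0.53 (G906D, 1 h against 0 h). With TMM these medians were -0.03 and 0.04.

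For the WT at 0 h and 1 h the block changed no call. Other pairs of groups fell short of r over 0.1 for every letter, and whether their letters paired libraries was not settled. For the C719A strain at 1 h and 2 h, r was 0.090, 0.149 and 0.114, with the own letter highest each time. Deviations of libraries with the same letter correlated between -0.399 and 0.209 across times within a strain, where the own letter gave the highest r for 7 of 9 in the C719A strain, 5 of 9 in the WT and 3 of 9 in the G906D strain, and between -0.199 and 0.252 across strains (9 of 27). With the replicate block within each strain, the number of the 7 genes called went from 4 to 2 (C719A against G906D, 0 h), 3 to 1 (G906D against WT, 1 h), 5 to 0 (C719A against G906D, 1 h), 2 to 1 (C719A against G906D, 2 h) and 4 to 1 (G906D minus WT, first hour). This fit takes 1 letter of each strain as its reference, so its comparisons between strains are not of group means. The counts between strains therefore do not measure a dependence on pairing. The last count, for a difference of changes within strains, does not depend on the reference.

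With library size alone it was 6 for G906D against WT at 1 h, 4 for C719A against G906D at 2 h, 6 for the WT and 5 for the G906D strain at 2 h against 0 h, and 7 for G906D minus WT in the first hour. limma-trend gave 6, 6, 5 and 7 for the same comparisons without C719A against G906D, with either pseudocount. DESeq2 gave 5 for G906D against WT at 1 h, 5 for the G906D strain at 2 h against 0 h and 1 for G906D minus WT over 2 h. Fitting only the groups compared gave 1 (G906D against WT, 1 h), 2 and 6 (C719A against G906D, 1 h and 2 h), 6 (G906D, 2 h against 0 h), 0 (C719A minus WT over 2 h) and 1 (G906D minus WT, first hour). TMM without chromosome VII gave 2 for C719A against G906D at 1 h. Without all replicate B libraries the counts were 2, 2 and 1 for C719A against G906D at 0, 1 and 2 h, 1 and 0 for the C719A and G906D strains from 1 h to 2 h, 0 and 1 for G906D minus WT in the first and the second hour, and 11 in place of 20 for all differences of response. With single libraries left out, counts ran from 1 to 6 (G906D against WT, 1 h), 1 to 6 and 1 to 3 (C719A against G906D, 1 h and 2 h), 2 to 6 (G906D, 2 h against 1 h), 0 to 2 (C719A minus WT over 2 h), 1 to 6 (G906D minus WT, first hour) and 3 to 7 (G906D minus WT, the second hour). Beyond these shifts, the cause was not tested.

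Only values that were not called changed sign. With library size alone and limma-trend (pseudocounts 1 and 0.1), *TPS2* was 0.073, 0.077 and 0.078 in the WT at 1 h and 0.22, 0.22 and 0.22 at 2 h against 0 h, *TPS1* in the C719A strain 0.16, 0.18 and 0.18 and *TPS2* in the G906D strain 0.11, 0.10 and 0.10 at 2 h against 0 h, and *TPS3* in C719A against G906D at 0 h 0.14, 0.12 and 0.13. *TSL1* in the WT at 1 h was -0.0099 with RLE and with DESeq2. With single libraries left out, *TSL1* there ran from -0.11 to 0.13, *TPS2* in the WT over 2 h from -0.13 to 0.018, *ATH1* in C719A against WT at 0 h from -0.010 to 0.73, *NTH2* in the C719A strain from 1 h to 2 h from -0.033 to 0.084, and *ATH1* in C719A minus WT in the first hour from -0.33 to 0.40 (-0.26 without all replicate B libraries). The log2 ratio of synthesis to breakdown in C719A against WT at 1 h ran from -0.044 to 0.060 and was -0.066 with CPM in place of FPKM. That of *NTH2* to *NTH1* ran from -0.048 to 0.040 (C719A against WT, 2 h) and from -0.24 to 0.10 (G906D against WT, 0 h), and that of *TSL1* to *TPS3* from -0.16 to 0.0064 (C719A, 2 h against 0 h).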
